A study of Mus musculus with 11 samples.

Results

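The Wnt ligands, their receptors and their antagonists were described in 11 RNA-sequencing libraries of the MamBo mouse mammary carcinoma lines. The members were the genes whose symbol was that of a Wnt ligand, a Frizzled receptor (Fzd), a secreted Frizzled-related protein (Sfrp), a Dickkopf protein (Dkk), an R-spondin (Rspo) or Lgr4, Lgr5 or Lgr6, together with the co-receptors Lrp5 and Lrp6, the receptor ubiquitin ligases Znrf3 and Rnf43, the transcription factors Lef1 and Tcf7, and the feedback genes Axin2 and Nkd1. This gave 52 of the 21846 genes in the table, chosen by name and not by their values.

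MamBo lines were established from mammary tumors of virgin female FVBhuHER2 mice, which carry a human HER2 transgene. MamBo89HER2stable came from tumor A and keeps HER2. MamBo43HER2labile came from tumor B and loses HER2 in vivo or under trastuzumab, an anti-HER2 antibody. By the study's account it also loses HER2 in untreated culture when seeded at low density. MamBo38HER2loss was derived from a HER2-negative tumor that grew from injected MamBo43 cells. The 5 HER2-positive libraries came from MamBo89 (untreated parental cells, an untreated clone, cells given trastuzumab for 30 days and then 30 days free of it, and cells given it for 60 days) and from untreated MamBo43, which had 1 library. The 6 HER2-negative libraries came from MamBo38 (2 untreated cultures and 1 under each of the same schedules) and from MamBo43 cells, seeded at high density, that had largely lost HER2 after one or the other schedule (MamBo43 TRT, n = 2). Under continuous trastuzumab, the study reports, a minority of HER2-positive MamBo43 cells persisted. It gives no such share for the 30 days on and 30 days off culture. Trastuzumab was used at 30 µg/ml. HER2 status is that given by the study, and the library of the clone, named AG3, was identified by exclusion. Libraries of a group differ in treatment, clone or name code, and no repeat of one culture is labelled, so the p-values measure the spread between these libraries. A code in the library names is shared by 8 libraries, and 3 of the MamBo38 libraries carry another. The human HER2 transgene itself was not analysed here.

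Wnt ligands are secreted lipid-modified proteins that bind a Frizzled receptor. With Lrp5 or Lrp6 as co-receptor they stabilize beta-catenin, which then works with the factors Lef1 and Tcf7 on target genes (the canonical branch), while ligands such as Wnt5a mostly act through Ror2 and the cell polarity machinery. Sfrp proteins bind the ligands, and Dkk proteins bind the co-receptors. R-spondins and their Lgr receptors keep Znrf3 and Rnf43 from removing Frizzled from the membrane. In the mammary gland Wnt signaling is known for its part in bud formation, in side branching and in stem cell maintenance, and Wnt1 was found as a mammary oncogene of the mouse.

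Total counts ranged from 17040454 to 27127662 per library (median 20592201), so that 3 counts, taken as the detection floor, were worth 0.112 to 0.179 CPM (counts per 1000000 of the scaled library total). Floors cover counting error only. The 10 epithelial markers summed to 3220 to 4510 CPM in HER2-positive libraries and to 1.44 to 2240 CPM in HER2-negative ones. The 10 mesenchymal markers summed to 272 to 2460 and 20600 to 43400 CPM, respectively. Fn1 held most of the latter sum, at 15600 to 39700 CPM in HER2-negative libraries. Not all of these markers rose. Cdh2 was at 24.1 to 63.9 CPM in HER2-positive and 8.04 to 34.6 CPM in HER2-negative libraries. Twist1 was at 33.8 to 54.4 and 41.4 to 59.6 CPM. Sums for 5 endothelial markers (at most 0.893 CPM) and 5 immune markers (at most 0.267 CPM) were near 0 in every library, 4 adipocyte markers summed to at most 2.71 CPM, and 8 basal markers summed to 13.4 to 51.7 CPM in HER2-positive and 21 to 628 CPM in HER2-negative libraries. The highest basal sum was mostly Acta2 (466 CPM) and Krt14 (111 CPM) in MamBo43 cells given trastuzumab for 60 days. The basal marker Oxtr went the other way, at 0.771 to 2.08 CPM in HER2-positive and at most 0.0764 CPM in HER2-negative libraries. As these are bulk libraries, fewer cells with a transcript and less of it per cell cannot be told apart.

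Of the 52 members, 4 (Wnt2, Wnt3, Wnt3a and Wnt8a) had no count in any library, and 15 in all, these 4 included, never exceeded 3 counts. The other 11 at the floor were Wnt1, Wnt7a, Wnt8b, Fzd10, Dkk1, Dkk3, Dkk4, Sfrp2, Sfrp5, Rspo1 and Rspo4. The remaining 37 were detected, comprising 12 of 19 Wnt ligands, 11 of 12 receptors, 3 of 8 antagonists, 5 of 7 R-spondins and Lgr receptors, and all of the ligases, transcription factors and feedback genes. In the heat map of members by library, some members were high in both MamBo89 and untreated MamBo43, such as Wnt7b (means of 299 and 282 CPM) and Lrp5 (646 and 871 CPM). Others differed between the lines.

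**Figure D1:**
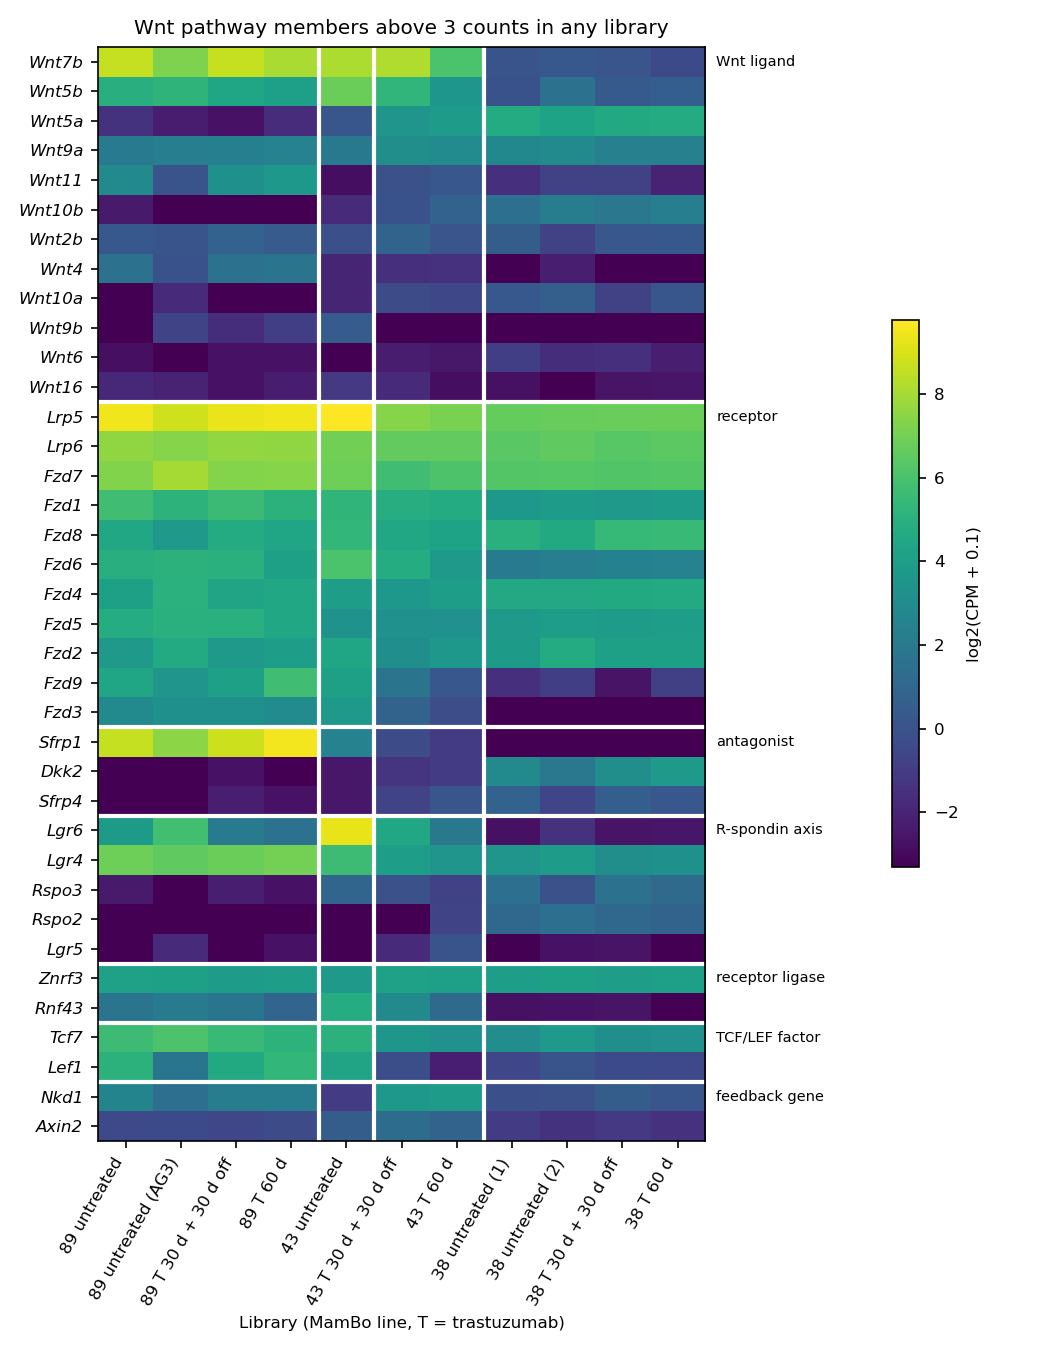
Level of the 37 detected members in each library, as log2(CPM + 0.1) by color, with rows grouped by role and columns by MamBo line (T, trastuzumab). Wnt7b and Lrp5 were bright in both MamBo89 and untreated MamBo43, and Sfrp1 was brightest in MamBo89. Wnt5a, Wnt10b and Dkk2 were brightest in MamBo38.

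Levels of different genes were compared per kilobase of exon. Among ligands, Wnt7b led in MamBo89 (61 CPM per kilobase), followed by Wnt5b (9.72), and the same pair led in untreated MamBo43 (57.6 and 42.6) and in MamBo43 TRT (37.6 and 9.57). In MamBo38 the order was Wnt5a (3.08 CPM per kilobase), Wnt9a (1.85) and Wnt10b (1.13), whereas Wnt7b was at 0.192. The member with the highest level per kilobase was the antagonist Sfrp1 in MamBo89 (100 CPM per kilobase), the R-spondin receptor Lgr6 in untreated MamBo43 (93.9), Wnt7b in MamBo43 TRT and Fzd7 in MamBo38 (16.9).

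The first comparison asked which members differ between HER2-negative and HER2-positive cells. Tests were edgeR's quasi-likelihood tests over all genes with enough counts, and a call needed both an adjusted p (Benjamini-Hochberg) under 0.1 and a log2 fold change of at least 1 in size. Of the 31 members that passed the filter on low counts, 18 were called, 5 higher and 13 lower in HER2-negative cells, while 32.8% of the 12364 genes tested were called, 15.8% higher and 17.0% lower. The median log2 fold change was -0.92 over the 31 members and -0.04 over all genes tested. Groups did not overlap in any library for 14 of the 31 members, 13 of which were called, against 34.9% of all genes tested. A gene high in 1 group can pass the filter through that group alone, so these counts describe the members that passed and not all 52. Adjusted p-values printed from here on are from the same edgeR tests, and log2 fold changes are given ± the standard error implied by the test.

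Values by library are given for the 20 members chosen by a rule (those called in this comparison, then those called within MamBo43 or between MamBo43 and MamBo89), and for Wnt7b, Nkd1, Axin2, Dkk2 and Wnt4, which were added after their values were seen. MamBo89 values stand in the order parental, clone, 30 days on and 30 days off, and 60 days on trastuzumab. MamBo38 values stand in the order untreated 1, untreated 2 and the same pair of schedules, and MamBo43 TRT values in the order of the schedules. Positions are on GRCm38.

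Among the ligands, Wnt5a, Wnt10b and Wnt10a were higher in HER2-negative cells and Wnt5b and Wnt11 lower. Wnt5a (chr14:28504750-28527448, plus strand), the best known ligand of the polarity branch, was at 0.276, 0.0969, 0.0583 and 0.22 CPM in MamBo89, 1.02 CPM in untreated MamBo43, 11.3 and 14.3 CPM in MamBo43 TRT and 26.2, 19.4, 24.7 and 26.2 CPM in MamBo38. Every HER2-negative library was above every HER2-positive one, untreated MamBo43 was the highest of the latter, and the log2 fold change was 5.85 ± 0.68 (adjusted p = 4.63e-05). Wnt10b (chr15:98770712-98778150, minus strand), a canonical ligand of the mammary bud, was at 0.0921 CPM in parental MamBo89 and 0 in the other MamBo89 libraries, 0.196 CPM in untreated MamBo43, 0.883 and 1.64 CPM in MamBo43 TRT and 2.6, 4.52, 3.52 and 4.76 CPM in MamBo38. These groups did not overlap either, and the log2 fold change was 5.43 ± 0.88 (adjusted p = 4.13e-04).

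Wnt10a (chr1:74791516-74804179, plus strand), a relative of Wnt10b, had 4 counts in the MamBo89 clone (0.194 CPM), 4 in untreated MamBo43 (0.157 CPM) and 0 in the other HER2-positive libraries, against 0.736 and 0.611 CPM in MamBo43 TRT and 1.11, 1.45, 0.477 and 1.05 CPM in MamBo38. Its log2 fold change of 3.51 ± 0.80 (adjusted p = 0.00364) rested on low counts, and it was not called with tumor of origin as a covariate (adjusted p = 0.196).

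Wnt5b (chr6:119432531-119544347, minus strand) is the close relative of Wnt5a and went the other way. It was at 30.1, 35.8, 20.7 and 16.7 CPM in MamBo89, 113 CPM in untreated MamBo43, 39.2 and 11.7 CPM in MamBo43 TRT and 0.867, 3.01, 1.19 and 1.42 CPM in MamBo38. The 30 days on and 30 days off library of MamBo43 TRT was above every MamBo89 library, so the groups overlapped, and the call at a log2 fold change of -2.18 ± 1.0 (adjusted p = 0.0874) was lost on leaving out any 1 of 8 libraries and with the trastuzumab schedule as a covariate (adjusted p = 0.149), a setting chosen after seeing the data. Between MamBo38 and MamBo89 alone, where the libraries did not overlap, the log2 fold change was -4.00 ± 0.50 (adjusted p = 5.00e-05).

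Wnt11 (chr7:98835112-98855195, plus strand), another ligand of the polarity branch, was at 7.55, 0.969, 9.33 and 12.3 CPM in MamBo89, 0.0392 CPM (1 count) in untreated MamBo43, 0.834 and 1.07 CPM in MamBo43 TRT and 0.241, 0.502, 0.477 and 0.15 CPM in MamBo38. MamBo89 was high except in its clone, and untreated MamBo43 was the lowest library of all. The pooled log2 fold change of -3.45 ± 0.99 (adjusted p = 0.0128) turned over within tumor B, where it was 3.59 (adjusted p = 0.122), and was 3.61 with tumor as a covariate (adjusted p = 0.151). Of its possible 75-base reads, 6.79% also occur in transcripts of another gene, Gm8398, so its counts are less certain.

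Wnt7b (chr15:85535437-85582473, minus strand), a ligand of the mammary luminal epithelium, was the most abundant ligand in all lines but MamBo38 and was not called. It was at 386, 151, 387 and 272 CPM in MamBo89, 282 CPM in untreated MamBo43, 300 and 67.8 CPM in MamBo43 TRT and 0.963, 1.12, 1.01 and 0.675 CPM in MamBo38. MamBo43 TRT thus stood with the HER2-positive libraries or between the groups, and the pooled log2 fold change was -2.26 ± 1.45 (adjusted p = 0.213). Without the 30 days on and 30 days off library of MamBo43 TRT it was -4.35 and was called (adjusted p = 0.0227), as it was with the schedule as a covariate (-4.98, adjusted p = 0.0861). Over the 9 settings that did not leave out a single library, the schedule included, it ranged from -8.02 to -1.26. Wnt7b stayed uncalled in 7 of these. MamBo89 held 318 times the mean level of MamBo38 (log2 fold change -8.32 ± 0.59, adjusted p = 9.46e-07).

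Wnt4 (chr4:137277489-137299726, plus strand), the ligand that acts downstream of progesterone in side branching, was at 2.9, 0.872, 2.8 and 3.14 CPM in MamBo89, 0.157 CPM in untreated MamBo43, 0.245 and 0.267 CPM in MamBo43 TRT, 0.112 CPM in the second untreated MamBo38 culture and 0 in the rest of MamBo38. It did not pass the filter for the pooled test, and it was lower in MamBo38 than in MamBo89 (log2 fold change -6.30 ± 0.84, adjusted p = 8.60e-05) and lower in untreated MamBo43 than in MamBo89 (-3.90 ± 1.21, adjusted p = 0.0455). Wnt9a (4.05 to 5.51 CPM in MamBo89 and 5.07 to 7.64 CPM in MamBo38) and Wnt2b (0.969 to 1.63 and 0.502 to 1.35 CPM) were tested and not called. Wnt9b, Wnt6 and Wnt16 stayed at or under 1.29, 0.433 and 0.353 CPM.

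No receptor was higher in HER2-negative cells. Of the 11 tested, 6 were lower (Fzd1, Fzd3, Fzd6, Fzd7, Fzd9 and Lrp5) and 5 were not called (Fzd2, Fzd4, Fzd5, Fzd8 and Lrp6). Lrp5 (chr19:3584828-3686564, minus strand), a canonical co-receptor, was at 724, 460, 674 and 726 CPM in MamBo89, 871 CPM in untreated MamBo43, 165 and 138 CPM in MamBo43 TRT and 101, 105, 111 and 113 CPM in MamBo38. The groups were far apart, HER2-positive libraries held 5.66 times the mean level of HER2-negative ones, and the log2 fold change was -2.50 ± 0.19 (adjusted p = 4.00e-06), with a range of -2.60 to -2.40 on leaving out each library. Its partner Lrp6 was at 126 to 199 CPM in HER2-positive and 82.1 to 100 CPM in HER2-negative libraries, which also did not overlap, but its log2 fold change of -0.92 ± 0.13 (adjusted p = 1.41e-04) was under the minimum size.

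Fzd3 and Fzd6 are the Frizzled receptors best known from the polarity branch. Fzd3 (chr14:65192449-65262463, minus strand) was at 7.23, 9.35, 9.33 and 7.98 CPM in MamBo89, 13.1 CPM in untreated MamBo43, 1.67 and 0.764 CPM in MamBo43 TRT and had no count in any MamBo38 library. MamBo38 was at least 56.2-fold lower than MamBo89, computed against 3 counts per library (pooled log2 fold change -4.50 ± 1.20, adjusted p = 0.00855), and within tumor B the difference was not called (adjusted p = 0.11). Fzd6 (chr15:39006034-39038188, plus strand) was at 29, 34.1, 31.4 and 17.2 CPM in MamBo89, 65.8 CPM in untreated MamBo43, 27.3 and 13.3 CPM in MamBo43 TRT and 4.29, 4.74, 5.3 and 5.58 CPM in MamBo38. MamBo38 was the lowest group and MamBo43 TRT overlapped MamBo89, with a pooled log2 fold change of -1.82 ± 0.54 (adjusted p = 0.0152) that was -1.22 and not called in the 8 libraries sharing a name code (adjusted p = 0.146).

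Fzd9 (chr5:135248938-135251230, minus strand) was at 20.8, 11.2, 17.1 and 54.6 CPM in MamBo89, 17.1 CPM in untreated MamBo43, 3.14 and 1.07 CPM in MamBo43 TRT and 0.241, 0.446, 0.0596 and 0.45 CPM in MamBo38. The groups did not overlap, and the pooled log2 fold change was -4.73 ± 0.83 (adjusted p = 7.26e-04). Fzd7 (chr1:59482424-59486955, plus strand), a receptor known from mammary stem cells, was at 157, 260, 163 and 169 CPM in MamBo89, 118 CPM in untreated MamBo43, 54.2 and 69.3 CPM in MamBo43 TRT and 76.1, 78.8, 74.7 and 77.1 CPM in MamBo38. Although lower (log2 fold change -1.27 ± 0.18, adjusted p = 1.93e-04), it was the most abundant Frizzled per kilobase in every group.

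Fzd1 (chr5:4753839-4758035, minus strand) was at 53.7, 35.3, 49.1 and 33.7 CPM in MamBo89, 37.7 CPM in untreated MamBo43, 28.2 and 26.4 CPM in MamBo43 TRT and 12.6, 14.7, 12.9 and 15.2 CPM in MamBo38 (log2 fold change -1.19 ± 0.26, adjusted p = 0.0025). Within tumor B its log2 fold change was -1.07 and was not called (adjusted p = 0.146), and that of Fzd7 was -0.75, under the minimum size. Fzd2, Fzd4 and Fzd8 had overlapping groups, at 12.9 to 25.6, 16 to 32.5 and 13.5 to 41.2 CPM in HER2-positive libraries and 9.02 to 26.2, 12.4 to 25.7 and 18.9 to 45.4 CPM in HER2-negative ones. Fzd5, of whose possible reads 15.7% also occur in Gm38058, was at 10.2 to 31.9 and 9.59 to 16.2 CPM.

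The antagonists held the largest log2 fold change among the members. Sfrp1 (chr8:23411502-23449632, plus strand), which binds Wnt ligands outside the cell, was at 391, 178, 440 and 749 CPM in MamBo89, 5.45 CPM in untreated MamBo43, 0.687 and 0.382 CPM in MamBo43 TRT and had no count in MamBo38. The libraries fell into an order of lines with wide gaps, so that MamBo38 was at least 2910-fold lower than MamBo89 and untreated MamBo43 was 80.6 times lower than MamBo89, although both are HER2-positive. The pooled log2 fold change was -10.86 ± 1.41 (adjusted p = 9.73e-05), and it was between -14.98 and -4.84 under the other settings.

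Sfrp4 (chr13:19623104-19632994, plus strand), another secreted Wnt-binding protein, was higher in HER2-negative cells. It had 0, 0, 2 and 1 counts in MamBo89 and 2 in untreated MamBo43, against 0.539 and 1.03 CPM in MamBo43 TRT and 1.64, 0.558, 1.43 and 1.09 CPM in MamBo38 (log2 fold change 4.26 ± 0.69, adjusted p = 4.15e-04). Dkk2 (chr3:132085292-132180304, plus strand), which binds Lrp5 and Lrp6, was highest in MamBo38 and did not pass the filter for the pooled test. It was at 7.27, 3.68, 8.64 and 13.2 CPM in MamBo38 and 0.294 and 0.382 CPM in MamBo43 TRT, with at most 2 counts in any HER2-positive library, and MamBo38 was above MamBo89 by a log2 fold change of 8.77 ± 0.73 (adjusted p = 2.86e-06).

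Within the R-spondin axis, the ligand Rspo2 was higher and the receptors Lgr4 and Lgr6 lower in HER2-negative cells. Rspo2 (chr15:43020794-43170826, minus strand) had no count in any HER2-positive library nor in the 30 days on and 30 days off library of MamBo43 TRT, 0.535 CPM in its 60 days library and 1.97, 2.62, 1.97 and 1.72 CPM in MamBo38, which was at least 14-fold higher than the HER2-positive libraries (adjusted p of the pooled comparison = 0.00512). The call was lost with tumor of origin as a covariate (adjusted p = 0.12) and within tumor B (0.127). Rspo3 (chr10:29452416-29535867, minus strand) had at most 2 counts in MamBo89, 1.84 CPM in untreated MamBo43, 0.834 and 0.497 CPM in MamBo43 TRT and 2.6, 0.837, 2.92 and 2.21 CPM in MamBo38. It was found in all libraries of tumor B and was not called by HER2 status (log2 fold change 1.90 ± 1.03, adjusted p = 0.14), except when untreated MamBo43 was left out (4.54, adjusted p = 8.38e-04), but was higher in untreated MamBo43 than in MamBo89 (4.71 ± 0.80, adjusted p = 0.00247). Of its possible reads 10.7% also occur in Gm48159.

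Lgr4 (chr2:109917647-110014257, plus strand), the most widely used R-spondin receptor, was at 116, 95.5, 112 and 129 CPM in MamBo89, 49.9 CPM in untreated MamBo43, 15.4 and 11.4 CPM in MamBo43 TRT and 11.1, 14.7, 8.82 and 9.37 CPM in MamBo38. The groups did not overlap, with a log2 fold change of -3.09 ± 0.25 (adjusted p = 5.91e-06) that stayed between -3.26 and -2.99 on leaving out each library. Lgr6 (chr1:134983301-135105276, minus strand), a receptor known from epithelial progenitors, was at 14.1, 56, 3.91 and 2.81 CPM in MamBo89, 643 CPM in untreated MamBo43, 22.1 and 3.67 CPM in MamBo43 TRT and 0.0482, 0.279, 0.0596 and 0.075 CPM in MamBo38. Untreated MamBo43 held most of the signal, and without it the pooled log2 fold change moved from -5.04 ± 1.86 (adjusted p = 0.0398) to -2.13 (adjusted p = 0.26). It was also not called with the schedule as a covariate (adjusted p = 0.416). Lgr5, the intestinal stem cell receptor, was at 0.955 CPM in the 60 days library of MamBo43 TRT and at or under 0.196 CPM in every other library.

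Neither ligase was called by HER2 status. Znrf3 was at 13.2 to 18.1 CPM in HER2-positive and 15.5 to 17.8 CPM in HER2-negative libraries, with a log2 fold change of 0.07 ± 0.13 (adjusted p = 0.657). Rnf43 (chr11:87662722-87735539, plus strand), itself a target of the canonical branch, was at 3.22, 3.97, 3.27 and 1.82 CPM in MamBo89, 27.6 CPM in untreated MamBo43 and 7.6 and 2.18 CPM in MamBo43 TRT, with at most 1 count in a MamBo38 library. Its MamBo43 libraries lay above or within the range of MamBo89, and the pooled log2 fold change was -2.27 ± 1.39 (adjusted p = 0.193). Without the 30 days on and 30 days off library it was -4.04 (adjusted p = 0.0307). Over the 9 settings that did not leave out a single library it ranged from -7.66 to -1.28, and Rnf43 stayed uncalled in 8 of these.

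Both transcription factors were lower in HER2-negative cells. Lef1 (chr3:131110471-131224356, plus strand) was at 33.4, 3.3, 24.4 and 41.2 CPM in MamBo89, 19.8 CPM in untreated MamBo43, 0.785 and 0.115 CPM in MamBo43 TRT and 0.578, 0.948, 0.656 and 0.637 CPM in MamBo38. The MamBo89 clone was the lowest HER2-positive library and still above every HER2-negative one, with a log2 fold change of -5.30 ± 0.65 (adjusted p = 6.68e-05). Of its possible reads 12.7% also occur in Gm43352. Tcf7 (chr11:52252371-52283014, minus strand) was at 50.9, 70.2, 45.9 and 35.2 CPM in MamBo89, 33.5 CPM in untreated MamBo43, 12.2 and 9.74 CPM in MamBo43 TRT and 8.52, 13, 9 and 9.86 CPM in MamBo38 (log2 fold change -2.18 ± 0.21, adjusted p = 1.68e-05).

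Since Lef1 and Tcf7 recognize a short core motif, the promoters of the members that were lower were searched for it. RefSeq windows of 250 bases upstream of a start site (GRCm38.p6) were at hand for 34 of the 52 members, and the letters CTTTGA, on either strand, were in 13.8% of the windows of all genes, in 5 of 42 windows of members and in 4 of 16 windows of the members that were lower. Windows were at hand for 9 of the 13 lower members and for none of Sfrp1, Fzd3, Fzd6 and Lrp5, and 4 of the 16 were of Lef1. Of the genes with a match, Wnt11 turned over within tumor B and the call of Wnt5b was easily lost, as given above. A match to these letters is a description of the sequence and not a binding site. The 4 windows are printed because they carry the motif in a gene that was lower, each 5′ to 3′ on its gene's strand, with CTTTGA, the E-box CACCTG that follows and their reverse complements in capitals. They lie at chr5:4758217-4758466 (minus, Fzd1), chr3:131156044-131156293 (plus, 1 of 4 start sites of Lef1), chr7:98834862-98835111 (plus, 1 of 2 start sites of Wnt11) and chr6:119449387-119449636 (minus, 1 of 3 start sites of Wnt5b), outside annotated exons.
Fzd1: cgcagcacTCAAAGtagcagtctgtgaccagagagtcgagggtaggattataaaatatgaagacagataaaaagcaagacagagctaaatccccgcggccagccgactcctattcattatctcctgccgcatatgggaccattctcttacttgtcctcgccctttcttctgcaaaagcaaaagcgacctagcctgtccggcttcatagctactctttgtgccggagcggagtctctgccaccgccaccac
Lef1: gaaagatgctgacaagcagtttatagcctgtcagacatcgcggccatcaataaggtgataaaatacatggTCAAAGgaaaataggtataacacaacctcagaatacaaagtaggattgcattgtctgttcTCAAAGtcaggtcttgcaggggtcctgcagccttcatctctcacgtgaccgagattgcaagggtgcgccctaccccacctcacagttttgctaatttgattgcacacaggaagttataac
Wnt11: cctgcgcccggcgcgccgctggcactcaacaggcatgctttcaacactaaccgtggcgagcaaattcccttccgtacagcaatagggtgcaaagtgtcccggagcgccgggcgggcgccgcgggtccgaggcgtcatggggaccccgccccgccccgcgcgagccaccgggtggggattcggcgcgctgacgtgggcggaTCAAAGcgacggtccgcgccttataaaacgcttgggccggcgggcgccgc
Wnt5b: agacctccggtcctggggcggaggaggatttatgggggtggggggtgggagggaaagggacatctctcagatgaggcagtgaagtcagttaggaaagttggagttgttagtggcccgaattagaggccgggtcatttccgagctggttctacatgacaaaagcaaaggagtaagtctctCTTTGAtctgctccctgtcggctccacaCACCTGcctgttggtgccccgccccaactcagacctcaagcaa
The same search for CACCTG, an E-box bound by EMT factors such as Zeb1, matched 17.2% of the windows of all genes, 10 of 42 windows of members and 2 of 16 of those that were lower, both of Wnt5b. A match was also in the window of Wnt10b, which was higher.

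The feedback genes are targets that the canonical branch switches on and that then restrain it. Axin2 (chr11:108920349-108950783, plus strand) was at 0.645, 0.678, 0.583 and 0.716 CPM in MamBo89, 1.37 CPM in untreated MamBo43, 2.35 and 1.68 CPM in MamBo43 TRT and 0.385, 0.279, 0.358 and 0.262 CPM in MamBo38. MamBo43 was the highest line whatever its HER2 status and MamBo38 the lowest, so that the pooled log2 fold change was 0.15 ± 0.64 (adjusted p = 0.863); it turned negative within tumor B (-0.65) and without either MamBo43 TRT library (-0.41 and -0.14). Nkd1 (chr8:88521354-88594884, plus strand) was at 5.9, 2.62, 4.43 and 4.62 CPM in MamBo89, 0.392 CPM in untreated MamBo43, 12.7 and 14.5 CPM in MamBo43 TRT and 0.819, 0.837, 1.37 and 1.05 CPM in MamBo38. Untreated MamBo43 was the lowest library and MamBo43 TRT the highest, on both sides of all others, and the pooled log2 fold change was 0.54 ± 0.93 (adjusted p = 0.651) and -0.10 without the 60 days library. It was 3.71 with tumor of origin as a covariate (adjusted p = 0.209).

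**Figure D2:**
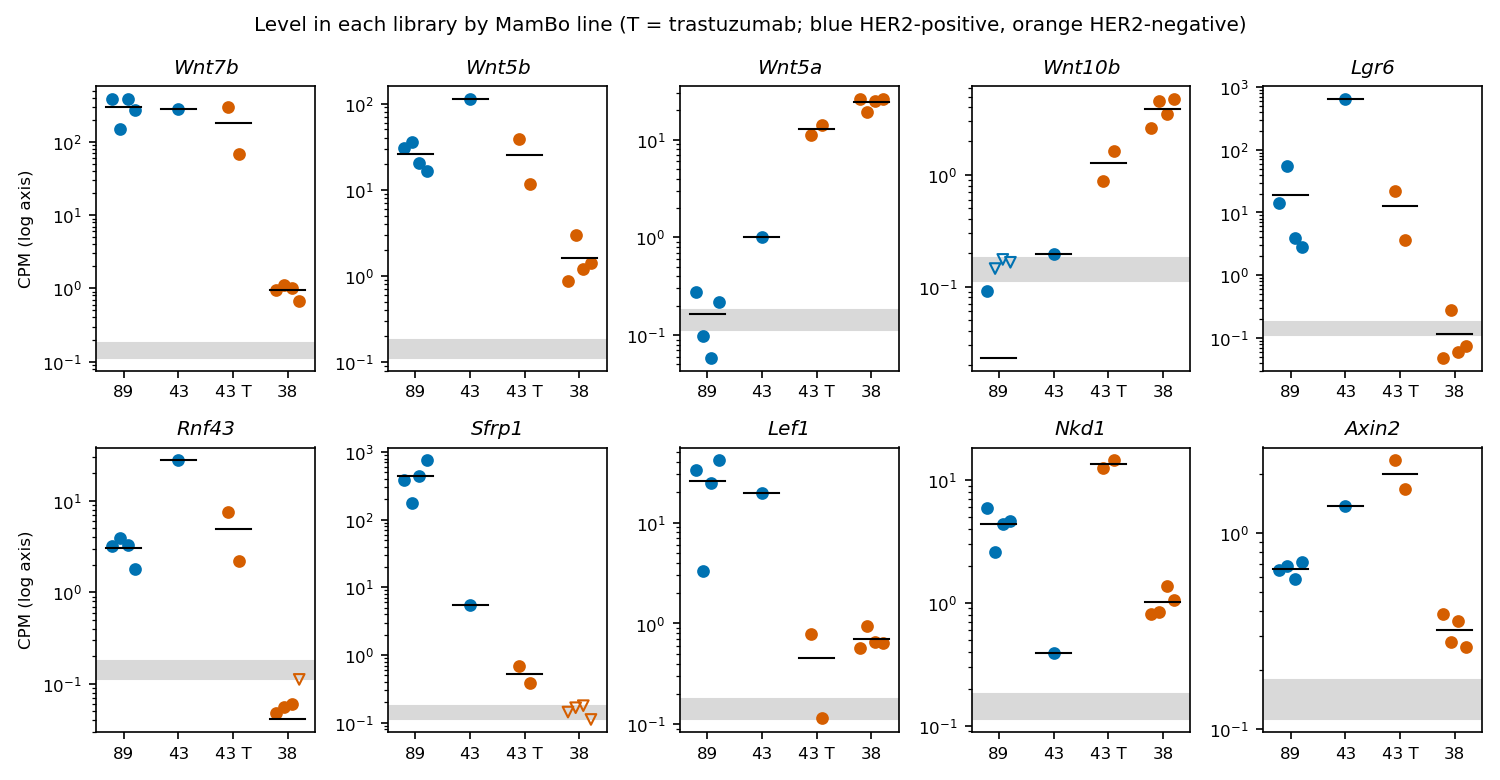
CPM on a log axis of 10 members in each library, by line, with the mean of each group as a bar and the range of 3 counts as a grey band; open triangles are libraries with no count, drawn at 3 counts. In MamBo43 TRT, Wnt7b (300 and 67.8 CPM) and Rnf43 (7.6 and 2.18 CPM) lay near MamBo89, whereas Lef1 (0.785 and 0.115 CPM) lay near MamBo38.

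The line-by-line comparisons, fitted with MamBo38, MamBo89, untreated MamBo43 and MamBo43 TRT as separate groups, asked which members differ along with HER2 loss in vivo and under trastuzumab. MamBo38 descends from tumor B through MamBo43, and MamBo89 from tumor A. Tumor of origin and HER2 loss thus cannot be told apart between them. The name code is nearly tied to the line as well. Within MamBo38, only the second untreated culture has the code found in all MamBo89 and MamBo43 libraries. In every comparison of MamBo38 with another line, here and below, an effect of the code thus cannot be separated from the line. With 1 MamBo38 library under the shared code, a subset cannot settle this. Of 35 members tested, 27 were called between MamBo38 and MamBo89 (7 higher and 20 lower in MamBo38, with 41.9% of all 13782 genes called, 19.9% higher and 22.0% lower). In MamBo43 TRT against untreated MamBo43, 19 were called (7 higher and 12 lower, with 29.1% of all genes called, 13.6% higher and 15.5% lower). The latter rests on 2 libraries against 1, and the lone library was assumed to vary like the others; without the 60 days library 11 members were called, 10 of them among the 19.

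These comparisons share no library, although the fit gives them a common estimate of the spread. Of the members called in them, 17 were called in both, which is 63.0% of the 27 and 89.5% of the 19; for all genes the shares were 48.6% and 70.0%. The direction was the same for 15 of the 17, with 3 higher (Wnt5a, Wnt10b and Sfrp4) and 12 lower (Sfrp1, Fzd3, Fzd6, Fzd9, Lrp5, Lgr4, Lgr6, Rnf43, Lef1, Tcf7, Wnt5b and Wnt9b), that is 88.2%, against 92.7% for all genes. Within MamBo43, Wnt5a was 12.6 times as high in MamBo43 TRT (log2 fold change 3.65 ± 0.51, adjusted p = 7.80e-04), and Lef1 (-5.51 ± 1.17, adjusted p = 0.00623), Lgr6 (-5.65 ± 1.48, adjusted p = 0.0162) and Lrp5 (-2.52 ± 0.25, adjusted p = 1.33e-04) were lower. The exceptions to a shared direction were Nkd1 and Wnt11, with MamBo89, of the other tumor, as the reference for MamBo38. Nkd1 was lower in MamBo38 than in MamBo89 (log2 fold change -2.10 ± 0.30, adjusted p = 1.39e-04) and higher in MamBo43 TRT than in untreated MamBo43 (5.10 ± 0.65, adjusted p = 4.96e-04), where its mean level was 34.6 times as high. Wnt11 was lower in the former (-4.48 ± 0.73, adjusted p = 3.40e-04) and higher in the latter (4.41 ± 1.74, adjusted p = 0.0789), against 1 count in untreated MamBo43. Called within MamBo43 alone were Wnt9a (1.08 ± 0.38, adjusted p = 0.0539) and Lgr5, which had no count in untreated MamBo43 and was at least 4.89-fold higher in MamBo43 TRT (adjusted p = 0.0728). Called in MamBo38 against MamBo89 alone were Wnt4, Wnt7b, Wnt10a, Fzd1, Fzd7, Lrp6, Dkk2, Rspo2, Rspo3 and Axin2; whether these 10 differed between the comparisons was not tested.

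MamBo38 was therefore also set against untreated MamBo43, its parent line, in the same fit, a comparison chosen after seeing the data that has 1 library as its reference and shares it with the comparison within MamBo43. Of the 35 members 21 were called, 6 higher and 15 lower in MamBo38, with 35.9% of all genes called, 17.4% higher and 18.5% lower. Wnt5a (4.56 ± 0.52, adjusted p = 7.15e-05), Wnt10b (4.26 ± 0.99, adjusted p = 0.00591), Dkk2, Sfrp4, Rspo2 and Nkd1 were higher. Wnt7b (-8.24 ± 0.65, adjusted p = 6.05e-06), Lrp5 (-3.01 ± 0.21, adjusted p = 2.63e-06) and Lef1 (-4.81 ± 0.88, adjusted p = 0.00148) were among those that were lower. Against this parent Nkd1 was thus higher in MamBo38 (1.36 ± 0.55, adjusted p = 0.0692), at a mean of 1.02 against 0.392 CPM, and Wnt11 was at 0.342 against 0.0392 CPM and was not called (2.90 ± 1.76, adjusted p = 0.21).

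**Figure D3:**
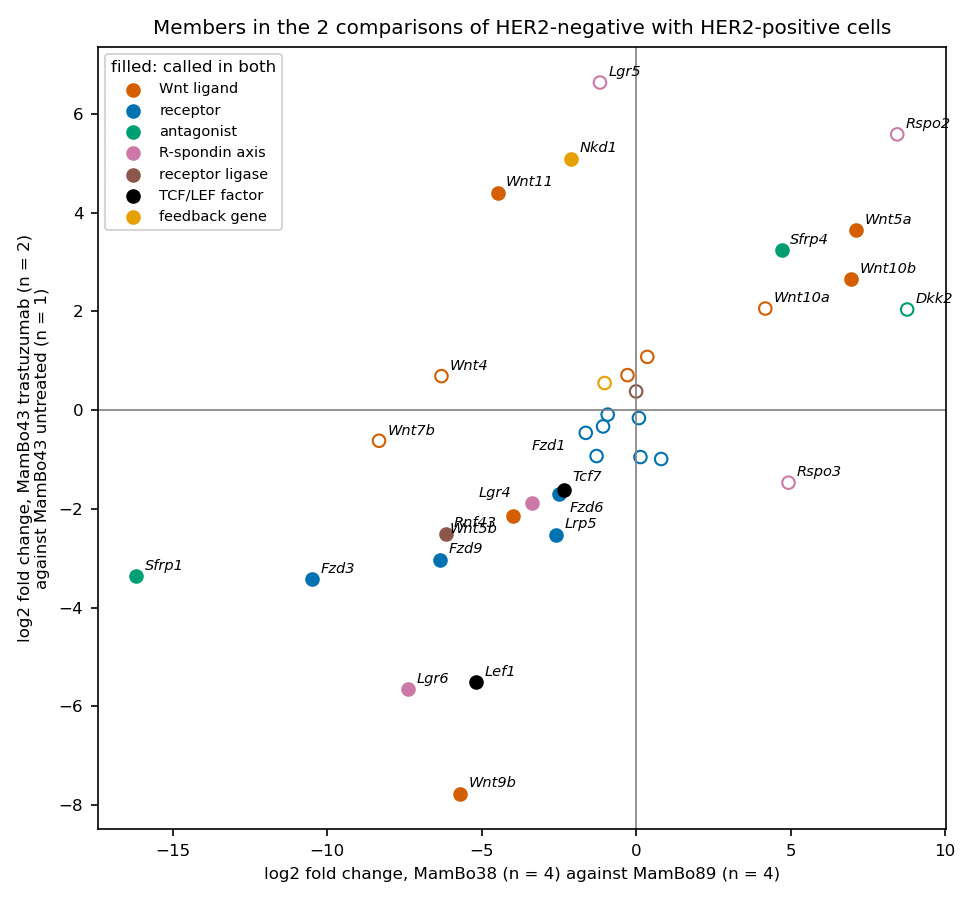
Log2 fold change of the 35 tested members in MamBo38 against MamBo89 (horizontal) and in MamBo43 TRT against untreated MamBo43 (vertical), colored by role; filled points were called in both. Nkd1 and Wnt11 lie in the upper left, lower in MamBo38 than in MamBo89 of the other tumor and higher in MamBo43 TRT than in untreated MamBo43; values against a group without counts (Sfrp1, Fzd3, Rspo2, Lgr5, Wnt9b) depend on the prior count of the fit.

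Epithelial RNA remained in MamBo43 TRT, the cultures in which some HER2-positive cells persisted. The 10 epithelial markers kept a median of 24.5% (range 17.4 to 88.7%) of their untreated MamBo43 level in the 30 days on and 30 days off library and 8.77% (2.92 to 23.3%) in the 60 days library. Wnt7b kept 106% and 24%, Rnf43 27.5% and 7.89%, Wnt5b 34.7% and 10.3%, and Fzd9 18.4% and 6.26%, all of them lower in the 60 days library, as were 9 of the 10 markers. Lgr6 kept 3.44% and 0.571% and Lef1 3.95% and 0.578%, below every marker in both libraries. Lrp5 (19% and 15.8%) and Lgr4 (31% and 22.9%) differed less between the schedules. The part of residual epithelial RNA in these values was not tested.

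**Figure D4:**
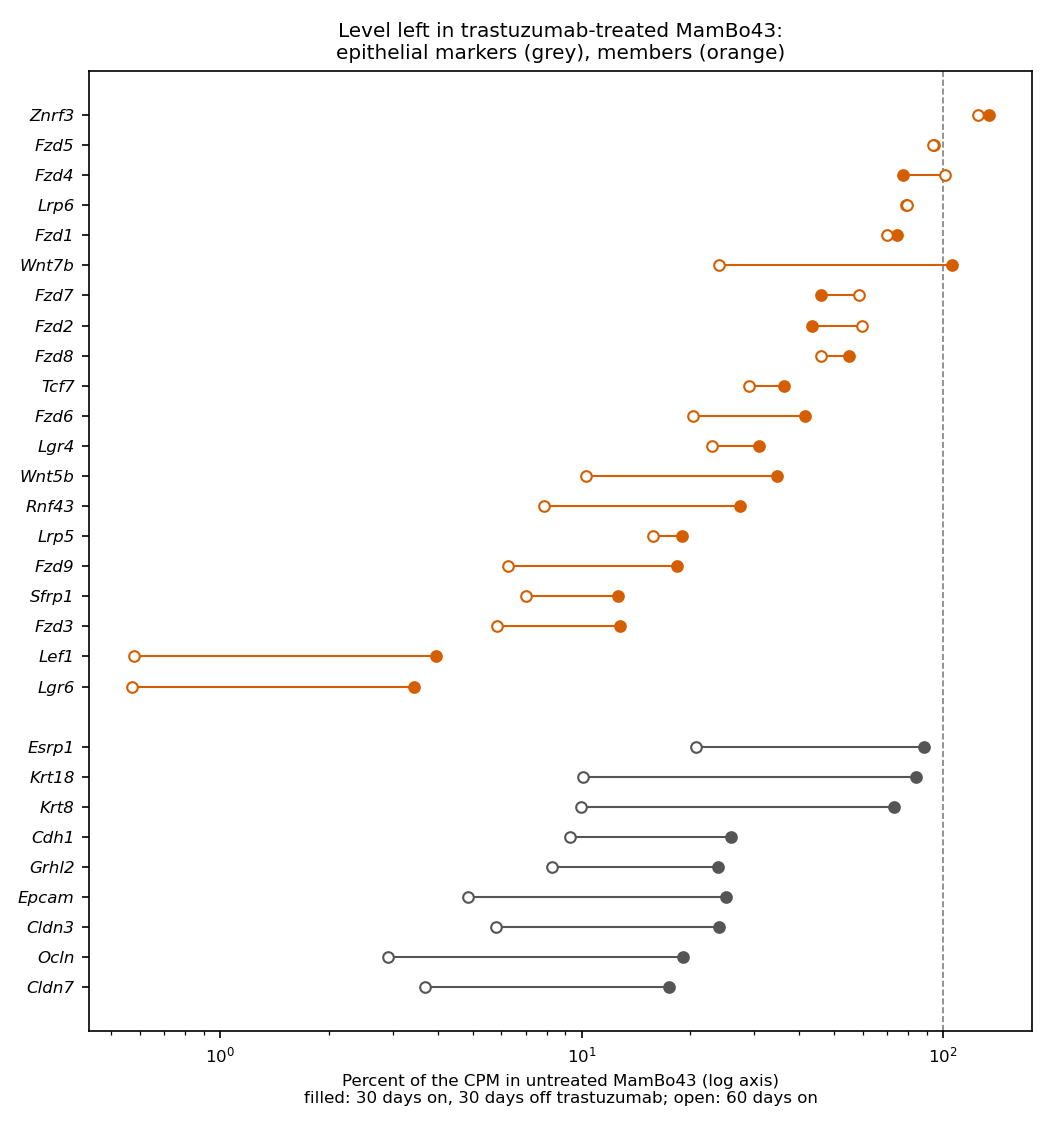
Level in the MamBo43 TRT libraries as a percent of that in untreated MamBo43, on a log axis, for epithelial markers (grey) and members (orange) with at least 100 counts in untreated MamBo43; filled points are 30 days on and 30 days off trastuzumab and open points 60 days on. Lgr6 and Lef1 lie left of all markers, and Wnt7b has 106% in the one and 24% in the other.

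HER2-positive MamBo43 and MamBo89 differed in 12 of the 35 members, 6 in each direction (18.9% of all genes called, 7.86% lower in untreated MamBo43 and the rest higher). Untreated MamBo43 was higher in Lgr6 (log2 fold change 5.05 ± 1.12, adjusted p = 0.0102), Rspo3, Rnf43 (3.16 ± 0.55, adjusted p = 0.00296), Wnt5a (2.57 ± 0.48, adjusted p = 0.00416), Wnt5b (2.13 ± 0.58, adjusted p = 0.028) and Fzd6 (1.23 ± 0.37, adjusted p = 0.0414). It was lower in Wnt11, Sfrp1, Wnt4, Nkd1, Fzd5 (-1.47 ± 0.27, adjusted p = 0.00399) and Lgr4. The tumor of origin and the line cannot be told apart here.

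HER2-negative MamBo43 TRT and MamBo38 differed in 16 of the 35 members (20.4% of all genes called, 10.2% in each direction), 12 of them higher in MamBo43 TRT. Those 12 were Wnt7b (7.62 ± 0.60, adjusted p = 2.01e-05), Rnf43 (6.82 ± 0.70, adjusted p = 9.76e-05), Lgr6, Lgr5, Wnt5b, Nkd1 (3.73 ± 0.34, adjusted p = 4.92e-05), Wnt4, Fzd3, Fzd9, Axin2 (2.63 ± 0.37, adjusted p = 6.58e-04), Fzd6 and Sfrp1. Lower in MamBo43 TRT were Dkk2 (-4.57 ± 0.68, adjusted p = 9.57e-04), Rspo2, Rspo3 and Wnt10b. Without the 30 days on and 30 days off library 10 members were called, all among these 16, and the calls of Rspo2, Rspo3, Wnt10b, Sfrp1, Wnt4 and Fzd9 were lost. Axin2 was also lower in MamBo38 than in untreated MamBo43 (-2.08 ± 0.44, adjusted p = 0.0036) and than in MamBo89 (-1.02 ± 0.33, adjusted p = 0.0203), and the last call was lost on leaving out any 1 of 5 libraries.

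Trastuzumab within a line whose HER2 status it left alone was compared last. With 2 libraries against 2, edgeR called none of 25 members in MamBo38 and none of 26 in MamBo89, nor any gene of all tested (0% called in each), with 1 and 2 members and 503 and 186 genes of all at an unadjusted p under 0.05. With DESeq2 there were 4 calls and no member among them in MamBo38, and 3 with 1 member, Lgr6, in MamBo89, where edgeR gave a log2 fold change of -3.41 ± 0.70 (adjusted p = 0.944) and both trastuzumab libraries (3.91 and 2.81 CPM) were below both untreated ones. Some members were called in fits that left 1 untreated library as the reference. These were Rspo3, Dkk2 and Wnt5b without the first untreated MamBo38 library. Without parental MamBo89 they were Wnt4, Wnt7b, Wnt11, Sfrp1, Fzd9, Lef1 and Lgr6, and without the MamBo89 clone Lgr6. The share of all genes called in these fits was not computed. The effect of trastuzumab in MamBo43 differed from that in MamBo89 for 9 of the 35 members (22.2% of all genes called), by a test of the difference.

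A wider list of 58 Wnt pathway genes outside the members was read in the same way, and the 10 called genes with the largest change by HER2 status are given with those needed to complete a group. Of 49 tested, 8 were higher and 14 lower in HER2-negative cells, beside 15.8% and 17.0% of all genes tested. Of 52 tested within MamBo43, 11 were higher and 15 lower in MamBo43 TRT, beside 13.6% and 15.5% of all genes. Ror2, the co-receptor of Wnt5a, was at 0 CPM in all 4 MamBo89 libraries, 0.863 CPM in untreated MamBo43, 15.3 and 20.2 CPM in MamBo43 TRT and 17.9, 23, 20.7 and 21.3 CPM in MamBo38 (log2 fold change 6.66 ± 1.10, adjusted p = 4.90e-04). Its levels thus separated the same libraries as those of Wnt5a. Ror1 went the other way (-3.21 ± 0.47, adjusted p = 2.29e-04), at 1.69 to 17.9 CPM in HER2-positive and 0.954 to 1.53 CPM in HER2-negative libraries, and so did the co-receptor Ptk7 (-2.78 ± 0.42, adjusted p = 2.73e-04).

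Among other inhibitors, Nkd2, which binds Dishevelled as Nkd1 does, was at 636, 746, 538 and 664 CPM in MamBo89, 302 CPM in untreated MamBo43, 10.1 and 10.5 CPM in MamBo43 TRT and at or under 0.167 CPM in MamBo38 (log2 fold change -7.35 ± 1.38, adjusted p = 0.00109). Shisa2, which retains Frizzled inside the cell, was lower too (-5.50 ± 1.26, adjusted p = 0.00371), while Apcdd1, a membrane-bound antagonist, was higher (5.10 ± 0.71, adjusted p = 1.53e-04). In the polarity branch Prickle1 was lower (-5.18 ± 0.78, adjusted p = 2.53e-04) and its relative Prickle2 higher (3.24 ± 0.54, adjusted p = 5.01e-04). Celsr1 and Celsr2, large cadherins of the same branch, were lower as well, at 55.1 to 97.1 and 77.4 to 182 CPM in HER2-positive libraries and 0.187 to 35.4 and 0.144 to 57.8 CPM in HER2-negative ones (-3.33 ± 1.24, adjusted p = 0.0414, and -3.43 ± 1.31, adjusted p = 0.0459). Of 12 nuclear factors 5 were lower and none higher, among them the co-repressor Tle4 (-4.00 ± 1.20, adjusted p = 0.0159).

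Genes often used as canonical targets were split. Ccn4 (3.01 ± 0.57, adjusted p = 0.00114) and Myc were higher, Bambi (-5.39 ± 0.85, adjusted p = 3.36e-04) and Ccnd1 were lower, and Cd44 and Ccn5 were not called. Sp5 had no count in any HER2-positive library and 0.385 to 0.893 CPM in the HER2-negative ones, and it did not pass the filter for the pooled test. Of the 12 cytoplasmic signaling genes, Apc2 and Dvl2 were higher and 10 were not called, with Ctnnb1, the gene of beta-catenin, at 573 to 699 CPM in HER2-positive and 665 to 897 CPM in HER2-negative libraries (0.36 ± 0.12, adjusted p = 0.0214). Wls, needed for Wnt secretion, was measured at 154 to 303 and 250 to 447 CPM and was not called (0.70 ± 0.21, adjusted p = 0.0159). Of the genes listed with it, Porcn was not called either (-0.09 ± 0.56, adjusted p = 0.899). Notum was higher in HER2-negative cells (2.73 ± 0.76, adjusted p = 0.0108), with overlapping groups at 0.388 to 3.87 and 2.3 to 21.4 CPM.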

How the data were processed

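RNA of 11 cultures had been sequenced by the authors with a kit that does not mark strand (75-base single-end reads on a NextSeq instrument). Per the submitters' processing notes, reads were aligned to mm10 with STAR 2.5 and quantified with RSEM 1.3.0; the gene annotation is not given in the sources used here. The deposited values are expected counts per gene as the authors' quantification gave them; no other column was used. They are whole numbers in the table and were used unchanged.

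Genes were kept by filterByExpr (minimum count 10, minimum total 15), scaled by TMM and tested by edgeR 4.0.16 (quasi-likelihood, two-sided) in R 4.3.3, with Benjamini-Hochberg adjustment over all genes tested. HER2-negative and HER2-positive libraries (6 and 5) were fitted as a pair of groups, the lines in one fit of 4 groups, and trastuzumab within MamBo38 and MamBo89 in fits of their own. The error of a log2 fold change is its size over the root of its F statistic. Thresholds (adjusted p under 0.1, absolute log2 fold change of 1 or more) followed the study, whose own test was DESeq2. CPM used TMM-scaled sizes of all 11 libraries; 0.1 CPM was added for the heat map only. A list's calls are given beside those of all genes. Scripts were tested on simulated data.

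Members and lists were chosen with earlier results of these data known. Members with values by library were those called by HER2 status by absolute log2 fold change, then those called within MamBo43 or between MamBo43 and MamBo89, up to 20. Gene positions and shared 75-base windows are from the GRCm38 annotation, and upstream windows from RefSeq. The alternatives were DESeq2 1.42.0, RLE size factors, no filter, an adjusted p under 0.05, tumor of origin added to the fit, subsets of libraries (8 that share a code in their names, tumor B, untreated) and leaving out each library. The trastuzumab schedule as a covariate and untreated MamBo43 as the reference for MamBo38 were added after seeing the data.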

Additional observations from a re-analysis of the deposited data

Results flagged for a closer look

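For 16 of 88 combinations of a member and a group, 1 library lay far from the others by Dixon's test. Its nominal rate of about 1 in 20 is no yardstick here. The test takes a group as 1 population, while each HER2 group mixes lines, and the combinations share libraries and are not independent. A flag within a HER2 group can thus restate a difference between lines given above. Among HER2-positive libraries, untreated MamBo43 stood above the 4 MamBo89 libraries in Lgr6 (643 CPM against 2.81 to 56), Wnt5b (113 against 16.7 to 35.8), Rnf43 (27.6 against 1.82 to 3.97), Rspo3 (1.84 against 0 to 0.117), Axin2 (1.37 against 0.583 to 0.716) and Wnt5a (1.02 against 0.0583 to 0.276). Among HER2-negative libraries, MamBo43 TRT given trastuzumab for 30 days and then 30 days free of it stood above the rest in Wnt7b (300 CPM against 0.675 to 67.8), Wnt5b (39.2 against 0.867 to 11.7), Lgr6 (22.1 against 0.0482 to 3.67), Rnf43 (7.6 against 0 to 2.18) and Fzd9 (3.14 against 0.0596 to 1.07). This library also held more epithelial-marker RNA than the 60 days library, and its part in these values was not tested.

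Among MamBo89 libraries, the clone stood apart in Fzd7 (260 CPM against 157 to 169), Wnt4 (0.872 against 2.8 to 3.14) and Wnt10a (0.194 against 0 in each other library). Fzd9 was at 54.6 CPM in MamBo89 given trastuzumab for 60 days, against 11.2 to 20.8 CPM in the other HER2-positive libraries. Lgr6 was at 0.279 CPM in the second untreated MamBo38 culture, against 0.0482 to 0.075 CPM in the others.

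The effect of trastuzumab in MamBo43 minus that in MamBo89, tested as an interaction by edgeR, was called for 9 of 35 members and 22.2% of all genes. It was negative for Lef1 (-6.35 on the log2 scale, adjusted p = 0.0291), Sfrp1 (-4.42, adjusted p = 0.0173), Fzd9 (-4.19, adjusted p = 0.0373), Fzd3 (-3.48, adjusted p = 0.0243), Lrp5 (-2.75, adjusted p = 0.00419) and Lgr4 (-2.08, adjusted p = 0.00816), and positive for Nkd1 (5.02, adjusted p = 0.00734) and Wnt5a (4.06, adjusted p = 0.0228). The ninth was Fzd8 (-1.35, adjusted p = 0.0626). In MamBo43 the treated cells had also largely lost HER2, so the difference holds treatment and HER2 loss together.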

How the results depend on the processing

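For HER2 status, 18 members were called with edgeR, DESeq2 and RLE size factors (the same 18 in each), 22 without a filter, 17 at an adjusted p under 0.05, 14 with tumor of origin as a covariate, 14 in the 8 libraries sharing a name code, 13 within tumor B and 20 in untreated cells; with the trastuzumab schedule as a covariate, chosen after seeing the data, 17 were called, with Wnt5b and Lgr6 lost and Wnt7b gained; leaving out each library gave 15 to 21. For MamBo38 against MamBo89, leaving out each library gave 26 to 27 calls, the schedule as a covariate 27 and untreated MamBo43 as the reference 21 (both chosen after seeing the data); within MamBo43, 11 to 22; for untreated MamBo43 against MamBo89, 12 to 14; for MamBo43 TRT against MamBo38, 10 to 17; for trastuzumab in MamBo38, 0 to 3, and in MamBo89, 0 to 7. DESeq2 called 1 member (Lgr6) for trastuzumab in MamBo89. By HER2 status it called 4059 genes of all, beside 4052 with edgeR. The share of all genes called was not computed for the other settings or on leaving out a library. Those counts show only how the calls of members moved.

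The log2 fold change by HER2 status changed sign for Wnt11 with tumor as a covariate (3.61) and within tumor B (3.59), for Rspo3 under the same settings (-0.16 and -0.19), for Axin2 under the same settings (-0.62 and -0.65), in untreated cells (-1.41), with the schedule as a covariate (-0.24) and without either MamBo43 TRT library (-0.41 and -0.14), and for Nkd1 in untreated cells (-1.81), with the schedule as a covariate (-0.48) and without the 60 days library (-0.10). On leaving out each library Nkd1 ranged from -0.10 to 0.79 and Axin2 from -0.41 to 0.44. Nkd1 was also at 3.71 with tumor as a covariate (adjusted p = 0.209) and 3.69 within tumor B (adjusted p = 0.305). Of the other 436 recomputed values, 404 kept their direction and side of the threshold, 26 lost a call and 6 gained one; the cause was not tested. Rspo2 and Wnt10a did not pass the filter in 5 of the 11 fits that left out a library. No other scaling moved the median of all genes by over 0.1 on the log2 scale. No paired analysis was possible because the labels give no replicate numbers; the schedules that the lines share entered as the covariate above. Members under 3 counts were not detectable at this depth, and the untreated MamBo43 group rests on 1 library.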
